A study of Mus musculus with 12 samples.

Results

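The genes described here are 7 ion channel genes of the hippocampus: Kcnq3, Kcnq5, Kcna1, Kcna2, Kcna4, Kcnd2 and Hcn2. They were taken by name from a table of 33250 gene symbols, and all 7 were among the 19325 genes with enough counts to be tested. The table held estimated read counts of polyA RNA from bulk hippocampus of 12 male mice, 6 with a conditional knockout (cKO) and 6 wild-type (WT). In cKO animals, Cre recombinase active in Emx1-positive cells deleted the miR379-410 cluster, a group of microRNA genes on chromosome 12. Emx1 marks excitatory neurons and part of the glia of the dorsal forebrain, so interneurons, vessel cells, microglia and other cells of the tissue keep the cluster. The sources used here do not give the alleles carried by WT animals, the strain or the age. The study asked whether loss of the cluster in glutamatergic neurons changes gene expression in the hippocampus.

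Each of these genes encodes a pore-forming subunit of a tetrameric channel that opens with the membrane voltage. Kcnq3 and Kcnq5 encode subunits of the M-current, a slow potassium current that restrains repetitive firing and is shut off by muscarinic receptors. Kcna1 and Kcna2 encode low-threshold delayed rectifiers of axons. Kcna4 encodes a fast-inactivating subunit that joins them, and Kcnd2 encodes the main subunit of the dendritic A-type current of pyramidal neurons. Hcn2 encodes a cation channel opened by hyperpolarization and modulated by cyclic nucleotides, which carries the h-current.

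A microRNA of the cluster can pair through its seed, bases 2 to 8, with a complementary 7-base match in the 3′ untranslated region (UTR) of a transcript. The sequences below are those of the seed found in the most members, a seed with 3 matches in Kcnq3, and a seed shared by a pair of miRNAs that among the members matched Kcnq3 alone. The miRNA sequences are from RefSeq (GRCm38.p6), written 5′ to 3′ with the seed in capitals.
mmu-miR-377-3p: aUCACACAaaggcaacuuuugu
mmu-miR-380-5p: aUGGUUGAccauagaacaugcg
mmu-miR-379-5p: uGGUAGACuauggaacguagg
mmu-miR-1193-5p: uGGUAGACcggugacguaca

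The seed of miR-377-3p had a match in 4 members, each shown with 15 bases before it and 1 after it. The match is in capitals, and positions are GRCm38.
Kcnq5, minus strand, chr1:21401885-21401907: gctgatgctatggggTGTGTGAa
Kcna1, minus strand, chr6:126641556-126641578: ctccattaagtagtcTGTGTGAa
Kcna2, plus strand, chr3:107114955-107114977: attttaacatcattcTGTGTGAa
Kcna4, plus strand, chr2:107297177-107297199: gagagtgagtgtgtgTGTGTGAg
The match in Kcna4 lies at the end of a short TG repeat. Of the 15354 tested genes with a 3′ UTR of at least 50 bases, 22.8% hold this 7-mer.

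The seed of miR-380-5p had 5 matches, 3 of them in Kcnq3, and its 7-mer is found in 8.46% of the same genes. That share is not matched for length, and the 3′ UTR of Kcnq3 has 8784 bases, against a median of 1381.5 over those genes.
Kcnq3, minus strand, chr15:65994705-65994727: aaggaaataattttcTCAACCAa
Kcnq3, minus strand, chr15:65992475-65992497: caggctttctctaatTCAACCAa
Kcnq3, minus strand, chr15:65988570-65988592: ccgcaaacttccagtTCAACCAt
Kcna2, plus strand, chr3:107110592-107110614: cattagctacctgagTCAACCAg
Kcnd2, plus strand, chr6:21728385-21728407: ctgcctttgtatttcTCAACCAg

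The seed shared by miR-379-5p and miR-1193-5p had 2 matches, both in Kcnq3. Its 7-mer is found in 5.96% of the same genes, again without matching for length.
Kcnq3, minus strand, chr15:65994553-65994575: tctcagggagacttgGTCTACCc
Kcnq3, minus strand, chr15:65990597-65990619: tggctgtggacaactGTCTACCa

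Across the 64 different seeds of 71 mature miRNAs of the cluster, the members held 114 matches. The number of matches followed the length of the 3′ UTR. Kcna2 had 45 matches in a 3′ UTR of 9401 bases and Kcnq3 had 32 in 8784 bases. Kcnq5 had 15 in 3760 bases, Kcnd2 had 10 in 2463, and Kcna4 had 6 in 1615. Kcna1 had 3 in 1471 bases and Hcn2 had 3 in 568. Per kilobase the range was 2.04 (Kcna1) to 5.28 (Hcn2), with Kcna2 at 4.79 and Kcnq3 at 3.64, around a median of 4.01 over 15354 genes with a 3′ UTR of at least 50 bases. At least 1 match was present in 91.1% of those genes. A match of letters is a description of the sequence and was not tested as a binding site.

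The 7 genes lie on 6 chromosomes and differ in architecture. Kcnq3 (chr15:65986387-66286642, minus strand), Kcnq5 (chr1:21398403-21961942, minus strand) and Kcnd2 (chr6:21215503-21729805, plus strand) are split into many coding exons over loci of 300.3, 563.5 and 514.3 kilobases. Kcna1 (chr6:126640397-126646384, minus strand), Kcna2 (chr3:107101146-107115005, plus strand) and Kcna4 (chr2:107290639-107298502, plus strand) each have 1 coding exon, in loci of 5.99, 13.9 and 7.86 kilobases. Hcn2 (chr10:79716634-79736108, plus strand) spans 19.5 kilobases with 8 exons. An exon of Kcnq5 overlaps the predicted gene Gm26580 on the other strand. Whether reads were counted by strand is also not stated, so reads of that overlap cannot be assigned to either gene.

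Libraries held between 42360558 and 51095758 counts, and no member had fewer than 1019 counts in any library. Mirg, a transcript that overlaps the cluster, had 23.6 to 46.4 CPM in cKO and 28.4 to 34.1 CPM in WT (CPM are counts scaled to library size by the TMM method). Which bases were deleted is not stated and other cells keep the locus, so Mirg is no check of the labels. The library labelled cKO 1 stood apart from the other cKO libraries, and below it is called cKO 1 after its label. At B830012L14Rik, a non-coding RNA upstream of the cluster, it had 0.788 CPM, against 17.4 to 25.8 CPM in cKO 2 to 6 and 0.310 to 0.865 CPM in WT. For Emx1, the driver gene, it had 9.14 CPM, against 5.91 to 6.84 CPM in cKO 2 to 6 and 8.38 to 9.60 CPM in WT. Without it, the log2 fold changes of cKO over WT reported below with all libraries were -0.32 (Kcnq3), -0.08 (Kcnq5), -0.24 (Kcna1), -0.13 (Kcna2), -0.14 (Kcna4), -0.13 (Kcnd2) and 0.01 (Hcn2). Pan-neuronal markers (Snap25, Rbfox3, Syt1, Tubb3 and Eno2) summed to 4272 to 4853 CPM in cKO and 4350 to 4867 CPM in WT, and none of them passed the test. The median sum was 4411 CPM in cKO and 4603 CPM in WT. The log2 fold change was below 0 in 4 of these 5 genes, with a median of -0.01. In bulk tissue, fewer cells of a type and less RNA per cell cannot be told apart.

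Per length of transcript, the levels of the members spanned a 5.47-fold range. Hcn2 was the most abundant, at 27.7 ± 0.782 CPM per kilobase of its longest annotated transcript (SD over 12 libraries), and its lowest library (26.6) lay above the highest library of the next member, Kcnd2 (26.2). Kcnd2 averaged 23.7 ± 1.62, Kcnq3 20.6 ± 2.71, Kcna2 18.0 ± 2.02, Kcna1 16.5 ± 2.51 and Kcnq5 12.9 ± 1.18 CPM per kilobase. The ranges of neighbours in that run overlapped over the 12 libraries. Within a library, Kcnd2 was above Kcnq3 and Kcna1 above Kcnq5 in 12 of 12, Kcnq3 above Kcna2 in 11 of 12, and Kcna2 above Kcna1 in 9 of 12. Kcna4 was the least abundant at 5.06 ± 0.544 CPM per kilobase, with every library below every library of Kcnq5. Among 41 voltage-gated potassium and Hcn genes, Hcn2 ranked 3, Kcnd2 6, Kcnq3 8, Kcna2 11, Kcna1 12, Kcnq5 17 and Kcna4 24. The isoforms counted are not known, so a longest transcript that is rarely made would lower its gene's value. Per kilobase of all annotated exons the order of Kcnq3 and Kcna2 was reversed, at 16.6 and 17.6 CPM.

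**Figure D1:**
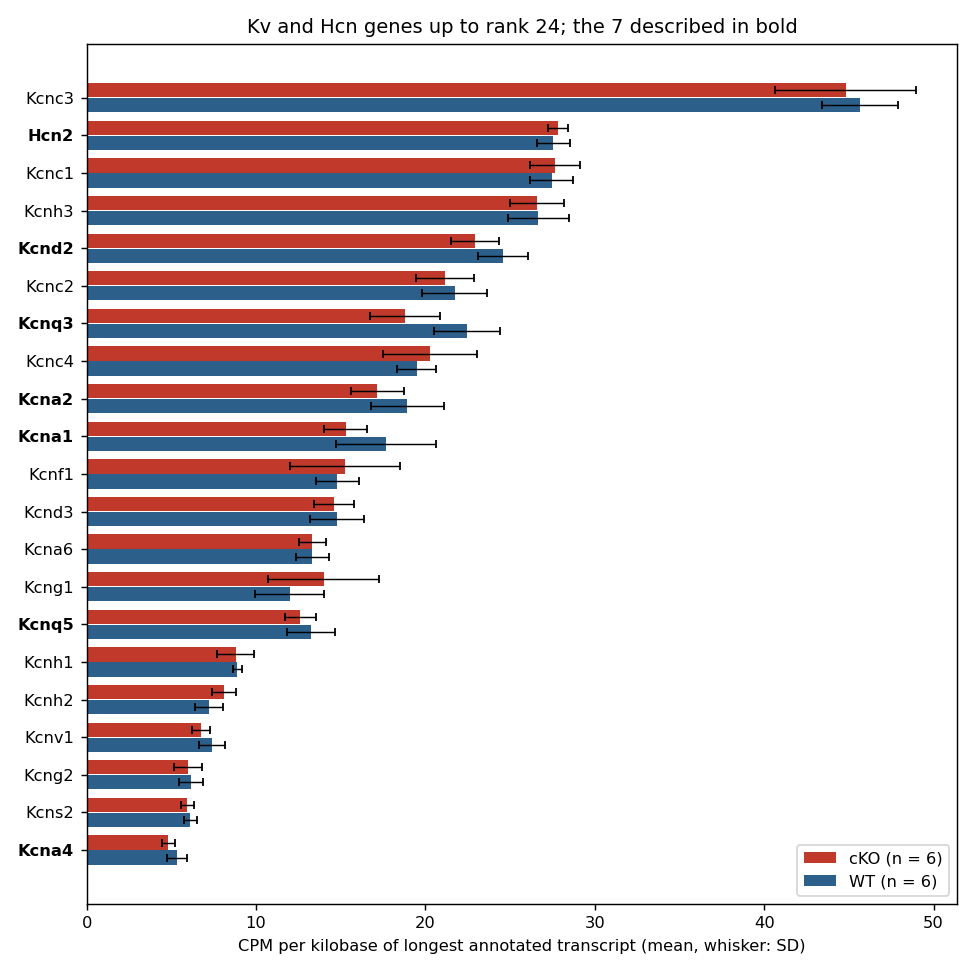
Level of 21 of the voltage-gated potassium and Hcn genes up to rank 24, in CPM per kilobase of the longest annotated transcript, as mean and SD of 6 cKO (upper bar) and 6 WT libraries (lower bar). Hcn2 and Kcnd2 are near the top, and Kcna4 is last at 5.06 CPM per kilobase over the 12 libraries.

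None of the 7 genes passed an adjusted p of 0.05 between genotypes in edgeR's quasi-likelihood test, where 0.0103% of 19325 genes did. The log2 fold change was below 0 in 6 of the 7, against 46.6% of all genes tested and 47.6% of the 8014 genes with a mean of at least 20 CPM. At an unadjusted p under 0.05, 2 of 7 were lower in cKO (Kcnq3 and Kcna1), against 6.34% of all genes and 8.21% of those of at least 20 CPM. The median log2 fold change of the members was -0.14, against 0.01 over all genes tested. In 0 of 7 members did all cKO libraries lie below every WT library, which held for 0.223% of all genes. The members were chosen with earlier results of these data known, so these counts are a description.

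**Figure D2:**
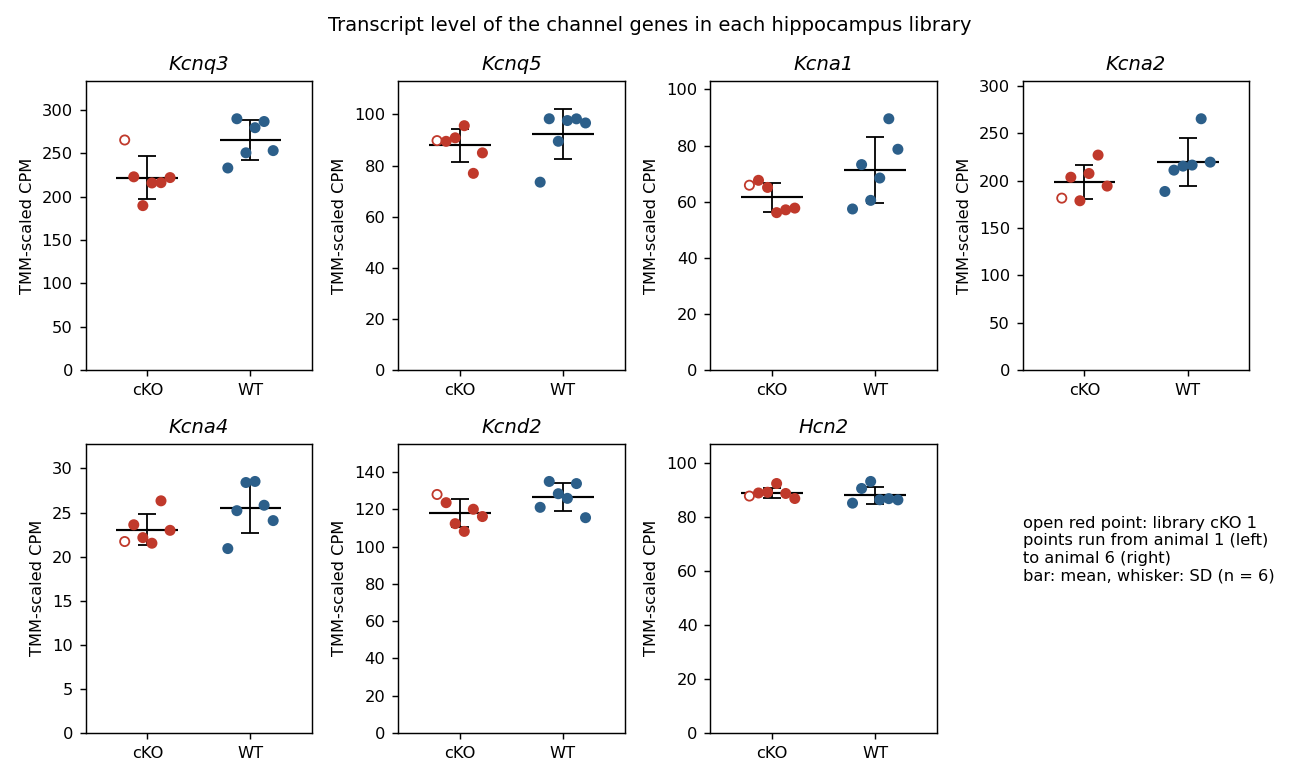
TMM-scaled CPM of each channel gene in 6 cKO (left, red) and 6 WT libraries (right, blue), with mean and SD, and with the library labelled cKO 1 as an open point. For Kcnq3 the filled cKO points, up to 222.8 CPM, all lie under the lowest WT point at 233.0 CPM, while the Hcn2 points of both genotypes share 1 narrow range.

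Kcnq3 showed the widest separation between genotypes. It had 189.6 (lowest), 219.0 (median) and 265.2 CPM (highest) in cKO, against 233.0, 266.2 and 289.7 CPM in WT. The highest cKO value belonged to cKO 1, and the other 5 cKO libraries lay below every WT library, a pattern of cKO 2 to 6 that 1.01% of all genes tested shared. The mean was 221.9 ± 24.5 CPM in cKO and 265.4 ± 23.1 CPM in WT (SD, n = 6 each). On the log2 scale cKO over WT was -0.26 ± 0.07 (SE), a difference of -16.4% of the WT mean, with an edgeR unadjusted p of 0.00360 and an adjusted p of 0.349. Without cKO 1 the log2 fold change was -0.32 with an edgeR adjusted p of 0.0836, and 6 genes (0.0308%) then passed in the whole table. As cKO 1 held the highest cKO value, leaving it out lowers the cKO mean, so this change is partly built in. DESeq2, which called 76 genes (0.436%), gave an adjusted p of 0.0807 for Kcnq3 with all libraries.

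Kcnq5, the other M-current gene, was read at 77.0 (lowest), 89.6 (median) and 95.6 CPM (highest) in cKO, against 73.5, 97.2 and 98.3 CPM in WT. The groups overlapped, with the lowest value of all in WT 1. Its log2 fold change was -0.07 ± 0.07 (SE), with a 95% interval of -0.22 to 0.08 and an edgeR adjusted p of 0.809. Without WT 1 it was -0.13, and without cKO 5, the lowest cKO library, it was -0.04. As WT 1 held the lowest WT value, leaving it out raises the WT mean, and leaving out cKO 5 raises the cKO mean. Both changes are therefore partly built in, and Kcnq5 did not pass after adjustment in either fit.

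Kcna1, which encodes the axonal delayed rectifier mutated in episodic ataxia, had 56.1 (lowest), 61.4 (median) and 67.6 CPM (highest) in cKO, against 57.4, 70.8 and 89.5 CPM in WT. The cKO libraries sat in the lower part of a wide WT range, and 4 WT libraries lay above every cKO library. The coefficient of variation was 8.34% in cKO and 16.7% in WT. The log2 fold change was -0.21 ± 0.10 (SE), with an edgeR unadjusted p of 0.0469 and an adjusted p of 0.520. WT 5 held the highest value, and without it the log2 fold change was -0.14 with an unadjusted edgeR p of 0.126.

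Kcna2, the most common partner of Kcna1 in axons, had 178.7 (lowest), 198.8 (median) and 226.9 CPM (highest) in cKO, against 188.5, 215.8 and 265.2 CPM in WT. Its log2 fold change was -0.14 ± 0.08 (SE), with an edgeR adjusted p of 0.585, and -0.08 without WT 5, which again held the highest value. Kcna4 had 21.5, 22.6 and 26.3 CPM in cKO, against 20.9, 25.5 and 28.5 CPM in WT, and its log2 fold change was -0.15 ± 0.07 (SE; edgeR adjusted p = 0.569). Without WT 2, WT 3 and cKO 4, the 3 libraries with the least Ttr, a choroid plexus transcript, Kcna4 was at -0.09. Both genes overlapped between genotypes. The ratios of Kcna1 and of Kcna4 to Kcna2 differed by -0.06 and -0.00 on the log2 scale between cKO and WT, with exact two-sided permutation p of 0.699 and 0.994 after adjustment over 6 ratios.

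Kcnd2 was read at 108.2 (lowest), 118.1 (median) and 128.0 CPM (highest) in cKO, against 115.5, 127.2 and 135.0 CPM in WT. The highest cKO library was cKO 1, 3 WT libraries lay above it, and 2 cKO libraries lay below every WT library. The log2 fold change was -0.10 ± 0.05 (SE), with an edgeR unadjusted p of 0.0519 and an adjusted p of 0.528. It was -0.13 without cKO 1 (edgeR unadjusted p = 0.0139, adjusted p = 0.244) and -0.13 without WT 6, the lowest WT library (0.0121 and 0.444). It was -0.05 without WT 2, WT 3 and cKO 4 (0.359 and 0.874). Leaving out the highest cKO or the lowest WT library widens the difference, so those larger values are partly built in. Kcnd3, which encodes a related A-type subunit, had -0.01 with a 95% interval of -0.17 to 0.14. The ratio of Kcnd2 to Kcnd3 differed by -0.09 on the log2 scale, with an adjusted exact permutation p of 0.597. It was -0.03 without cKO 4, -0.05 without WT 1 and -0.03 without WT 2, WT 3 and cKO 4.

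Hcn2 was the steadiest member in both genotypes. It had 86.8 (lowest), 88.8 (median) and 92.4 CPM (highest) in cKO, against 85.1, 86.6 and 93.1 CPM in WT, and the cKO range lay inside the WT range. Its coefficient of variation was 2.13% in cKO and 3.53% in WT. The log2 fold change was 0.01 ± 0.03 (SE), with a 95% interval of -0.05 to 0.08 (edgeR adjusted p = 0.915).

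**Figure D3:**
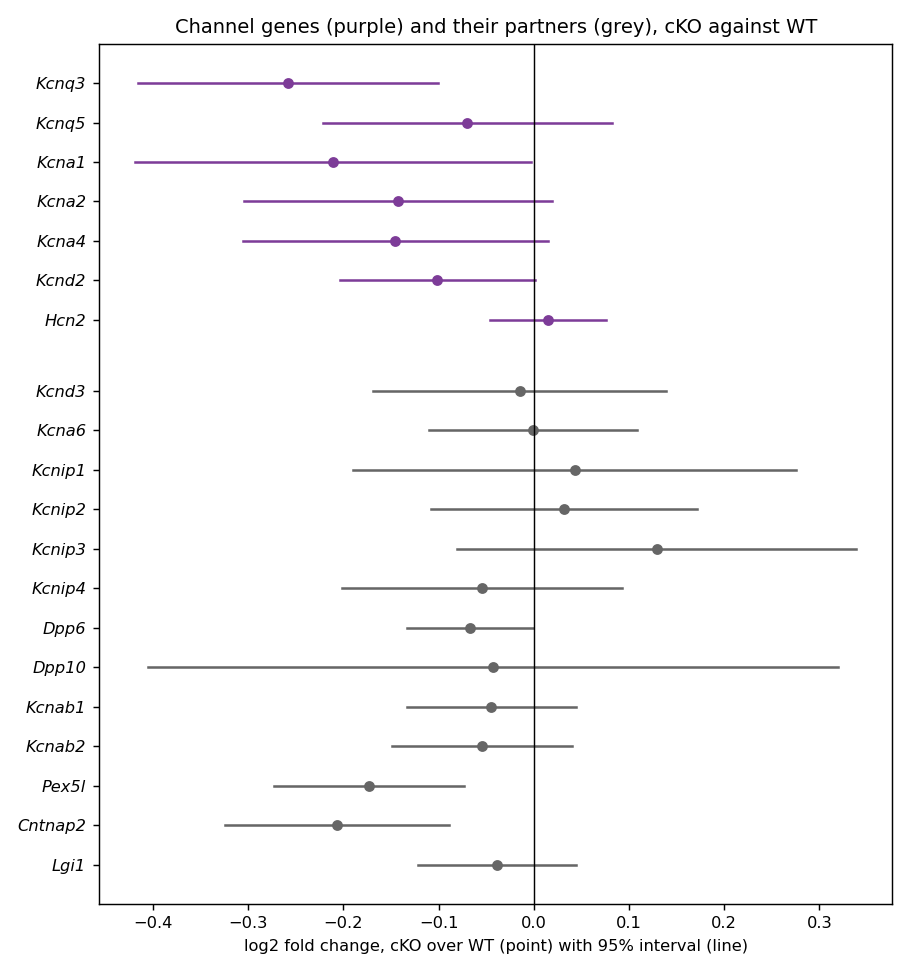
Log2 fold change of cKO over WT with its unadjusted 95% interval for the 7 channel genes (purple) and 13 partner genes (grey). The intervals of Kcnq3, Kcna1, Dpp6, Pex5l and Cntnap2 lie below 0, none of these genes passed the adjusted threshold, and Hcn2 has the narrowest interval among the channel genes.

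One WT library carried low values across the set. WT 1 held the lowest WT value for 6 of the 7 members, all but Kcnd2, whose lowest was in WT 6. It also had the most Ttr of all libraries, at 7657 CPM, against 28.3 to 5078 CPM in the other 11 libraries. Without WT 1, 6 of 7 members (all but Hcn2) were lower in cKO at an unadjusted edgeR p under 0.05, against 9.4% of all genes in that fit. None passed after adjustment, and the smallest adjusted p was 0.0916 for Kcnq3. WT 1 was picked out by its low values for these same genes, so leaving it out raises their WT means. The higher count is therefore partly built in and is a description. Without WT 5, which held the highest values of Kcna1 and Kcna2, 1 member was lower at the same unadjusted threshold. The part of choroid plexus tissue in these values was not tested.

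The 6 potassium channel members varied together to a moderate degree. Over the 12 libraries, which share tissue source and depth, Pearson's r of log2 CPM in their 15 pairs ranged from 0.20 to 0.81 with a median of 0.50. After each genotype was centred on its own mean, the range was 0.08 to 0.72 with a median of 0.35. The closest pair was Kcnq3 with Kcnd2 (r = 0.81, and 0.72 when centred), followed by Kcnq5 with Kcna1 (0.66 and 0.64). By Spearman's rank correlation Kcnq3 with Kcnd2 was again closest (0.83 and 0.79). Kcnq5 with Kcna1 (0.71 and 0.42) then lay below Kcnq3 with Kcna1 (0.76 and 0.46) and Kcna2 with Kcna4 (0.76 and 0.49). The 6 pairs with Hcn2 had r from -0.28 to 0.26. These are descriptions over 12 libraries, without a test. Pairs of other genes were not set beside them, so the values are not shown to be particular to these channels.

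**Figure D4:**
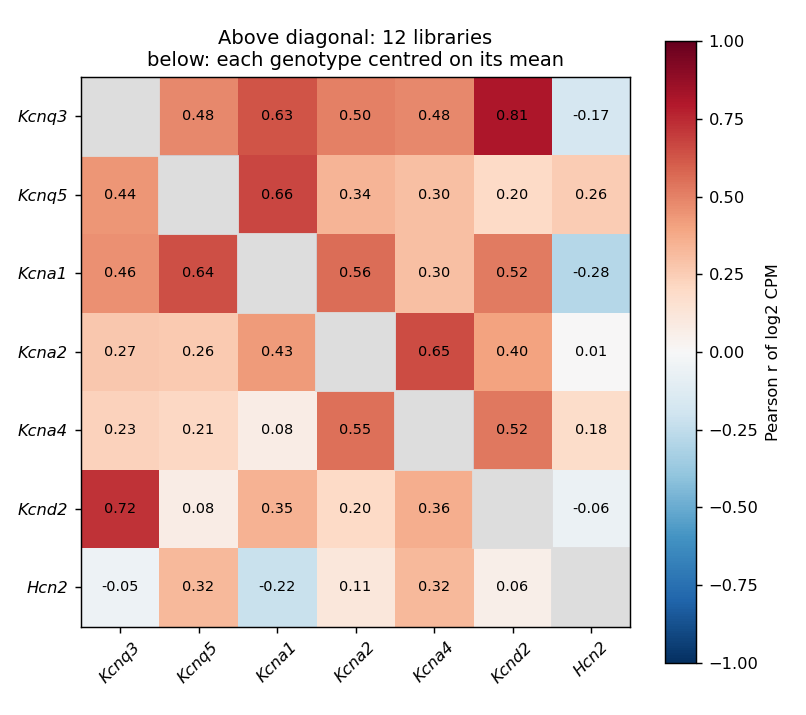
Pearson correlation of log2 CPM between the channel genes over 12 libraries (above the diagonal) and after centring each genotype on its mean (below). Kcnq3 and Kcnd2 form the closest pair at 0.81 and 0.72, and the values of Hcn2, in its column and its row, stay between -0.28 and 0.32.

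Among 10338 other genes of at least 10 CPM, the genes closest in pattern to each member differed between members. For Kcnq3 they included Braf (r = 0.97) and Nbea (0.97), and for Kcnq5 they were Capn5 (0.94), Jmjd4 (0.94) and Slit3 (0.91). Kcna1 was closest to Heatr5b (0.96), Dido1 (0.95) and Bptf (0.95). Those of Kcna2 included Srpk2 (0.94) and Ttc39b (0.94). Kcna4 was closest to Mid2 (0.88), Npy1r (0.88) and Dhx8 (0.88), and Kcnd2 to Cul5 (0.94), Nup133 (0.92) and Exoc5 (0.92). Hcn2 was closest to Ss18l1 (0.96), Zfp28 (0.93) and Bcl2l2 (0.92). These values are Pearson's r over 12 libraries and are the highest of many, so they are larger than they would be in other samples.

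Auxiliary and anchoring proteins decide where these channels sit and how fast they open. Of 36 such genes tested, 25 had a log2 fold change below 0 and 11 above, with a median of -0.04. At an unadjusted p under 0.05, 7 were lower and 2 higher, against 6.34% and 3.2% of all genes, and 0 passed after adjustment. Among genes with a mean of at least 20 CPM, 8.21% were lower at that unadjusted threshold. Of all genes tested, 46.6% had a log2 fold change below 0. Cntnap2, which anchors Kcna channels beside the nodes of Ranvier, averaged 113.0 ± 8.04 CPM in cKO and 130.4 ± 9.18 CPM in WT (SD, n = 6 each; log2 fold change -0.21, edgeR adjusted p = 0.343). Pex5l, which encodes the HCN trafficking subunit TRIP8b, averaged 166.3 ± 7.11 CPM in cKO and 187.5 ± 13.5 CPM in WT (SD, n = 6 each; log2 fold change -0.17, edgeR adjusted p = 0.343). Ank2, an ankyrin that links membrane proteins to the spectrin skeleton, had -0.19 (edgeR adjusted p = 0.353).

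The partners of Kcnd2 had log2 fold changes of both signs. Dpp6, a subunit that speeds the A-type current, had -0.07 ± 0.03 (SE; edgeR unadjusted p = 0.0490, adjusted p = 0.521), and Dpp10 had -0.04 ± 0.17. The calcium-binding subunits had 0.04 ± 0.11 (Kcnip1), 0.03 ± 0.06 (Kcnip2), 0.13 ± 0.10 (Kcnip3) and -0.05 ± 0.07 (Kcnip4). The cytoplasmic beta subunits of Kcna channels had -0.04 ± 0.04 (Kcnab1) and -0.05 ± 0.04 (Kcnab2). Lgi1, which encodes a secreted protein of Kcna complexes, had -0.04 ± 0.04. With single libraries left out, the values ranged from 0.05 to 0.17 for Kcnip3, -0.12 to -0.03 for Kcnip4, -0.08 to -0.02 for Kcnab1, -0.10 to -0.04 for Kcnab2 and -0.07 to -0.02 for Lgi1. The value of Kcnab2 farthest from 0 was the one without cKO 1, where the gene was highest. None of these partners passed the adjusted threshold.

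Of 31 other pore-forming voltage-gated potassium channel genes tested, 16 had a log2 fold change below 0 and 15 above, with a median of -0.00. The number below 0 was 22 without cKO 4 and 20 without WT 6, and ranged from 14 to 22 over all alternatives. At an unadjusted p under 0.05, 3 were lower and 2 higher, against 6.34% and 3.2% of all genes, and 0 passed after adjustment. The share of all genes with a log2 fold change below 0 was 46.6%. Kcnh7, an ERG-type channel gene, averaged 43.6 ± 5.60 CPM in cKO and 53.6 ± 7.80 CPM in WT (SD, n = 6 each), which is -0.30 on the log2 scale (edgeR adjusted p = 0.368). Kcna3 had -0.49 at 3.29 CPM in cKO and 4.63 CPM in WT (edgeR adjusted p = 0.407). Kcnq1 had 0.72 at 0.469 CPM in cKO and 0.281 CPM in WT (edgeR adjusted p = 0.369), and its locus also holds an antisense transcript whose reads cannot be told apart where strand was not counted. Kcna6, which encodes another Kcna subunit, had -0.00 ± 0.05 (SE), a value whose sign turned when library totals alone were used.

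Hcn3 and Hcn4, which encode related h-channel subunits, had log2 fold changes of 0.11 and 0.18, with edgeR adjusted p of 0.756 and 0.830. Of 33 other potassium channel genes, 20 had a log2 fold change below 0 and 13 above, with a median of -0.03. At an unadjusted p under 0.05, 4 were lower and 2 higher, against 6.34% and 3.2% of all genes, and 0 passed after adjustment. A log2 fold change below 0 was found in 46.6% of all genes. Kcnt2, a sodium-activated channel gene, had -0.30 (edgeR adjusted p = 0.352), Kcnma1, the large-conductance calcium-activated channel gene, had -0.17 (0.404), and Kcnmb1, a beta subunit of that channel, had 0.32 (0.442).

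The members that are long genes share their direction with other long genes. Among 533 genes of at least 1 CPM with loci over 300 kilobases, which include Kcnq3, Kcnq5 and Kcnd2, 77.3% had a log2 fold change below 0, with a median of -0.06. Among 415 genes with an annotated 3′ UTR over 6000 bases, which include Kcnq3 and Kcna2, 81.2% were below 0, with a median of -0.08. In the same comparison, genes with loci up to 10 kilobases, which include Kcna1 and Kcna4, had 37.9% below 0 and a median of 0.02. Kcnq3, Kcna1 and Kcna4 lay below the interquartile range of their own length class on both measures. Kcnq5, Kcna2 and Kcnd2 lay below it on 1 measure, and Hcn2 lay inside it on both. This comparison was added after the members' values had been seen, and the part of length in the members' differences was not tested.

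**Figure D5:**
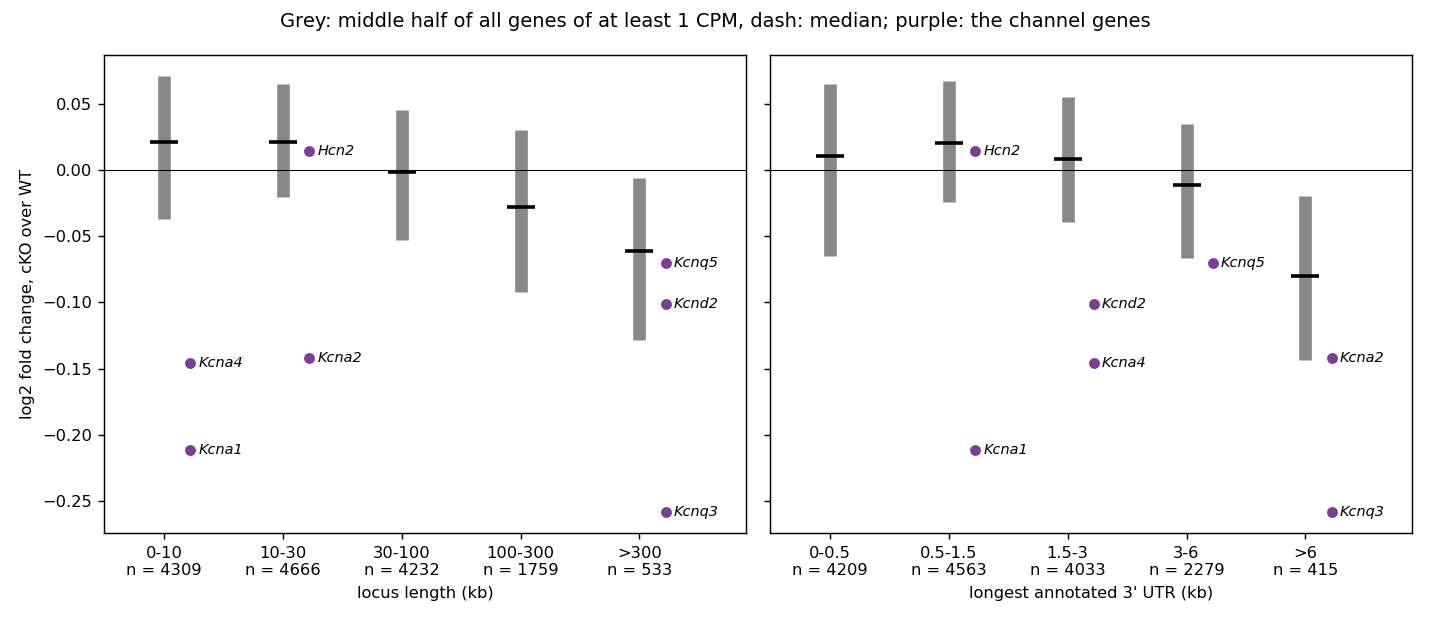
Log2 fold change of cKO over WT for genes of at least 1 CPM, grouped by locus length (left) and by the longest annotated 3′ UTR (right), as the median (dash) and the interquartile range (grey) of each class, with the channel genes as purple points. The medians are -0.06 in loci over 300 kilobases and -0.08 in 3′ UTRs over 6 kilobases, while Kcna1 and Kcna4 lie low in classes whose medians are above 0.

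Markers of other cells were compared beside these values. Dentate granule neuron markers (Prox1, Dsp and C1ql2) were below 0 in 3 of 3 genes with a median of -0.20, with sums of 163.3 to 289.7 CPM in cKO and 219.9 to 283.3 CPM in WT. Oligodendrocyte markers were below 0 in 5 of 5 genes with a median of -0.08, and summed to 2586 to 4294 CPM in cKO and 3175 to 4801 CPM in WT. The median of the oligodendrocyte sums went the other way, at 3719 CPM in cKO and 3560 CPM in WT. Interneuron markers (Gad1, Gad2, Pvalb, Sst and Vip) were above 0 in 5 of 5 with a median of 0.04. Smooth muscle markers (Acta2, Myh11 and Tagln) were above 0 in 3 of 3 with a median of 0.84, and summed to 63.8 to 104.6 CPM in cKO and 34.0 to 63.5 CPM in WT. Choroid plexus markers were above 0 in 5 of 5 with a median of 0.27, and their sums ran from 54.2 to 5479 CPM in cKO and from 84.8 to 8197 CPM in WT. Striatal markers were above 0 in 3 of 3 with a median of 0.20, with sums of 45.4 to 104.8 CPM in cKO and 47.7 to 107.9 CPM in WT. Neocortical and microglial markers were below 0 in 3 of 3 each, with medians of -0.09 and -0.08. Excitatory neuron markers were below 0 in 2 of 3 with a median of -0.03, and summed to 5504 to 6394 CPM in cKO and 5806 to 6525 CPM in WT. CA2 markers were above 0 in 2 of 2 (0.14) and blood markers in 3 of 3 (0.06), and the medians of CA1, CA3, astrocyte, endothelial and thalamic markers lay between -0.03 and 0.04. None of these markers passed the adjusted threshold, and their part in the channel values was not tested.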

How the data were processed

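RNA of 12 hippocampi (6 cKO, 6 WT, grouped by their titles) was measured as estimated counts per gene symbol, which the authors deposited unscaled. Salmon 1.3.0 and the build GRCm38 are named per the submitters' processing notes. The sources used here give neither annotation nor strand setting nor how transcripts were summed. The deposited expected counts were rounded, since 24.8% to 25.9% of each library's values were not whole.

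The main test was quasi-likelihood in edgeR 4.0.16 (R 4.3.3) after TMM scaling and filterByExpr (count minimum 10, total 15), with genotype as the only term and Benjamini-Hochberg adjustment over all genes tested. CPM are TMM-scaled, and correlations use log2 CPM with a prior count of 2. Intervals for fold changes are 95% and unadjusted. Ratios of member to partner counts were compared by exact two-sided permutation over 924 arrangements. Alternatives were other scalings and filters, DESeq2 1.42.0, limma 3.58.1 (voom), each library left out, 3 libraries left out together, and animal number as a term. Gene coordinates, transcript lengths and 3′ UTRs are from GENCODE M21 (GRCm38). No reference protein sequences were used. The main edgeR fit was tested on simulated counts, and the permutation test on values with a known answer.

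Named genes were the 7 members, 13 partners, up to 3 genes with the smallest p in each list, and up to 3 genes of at least 10 CPM most correlated with each member. Mirg, B830012L14Rik, Emx1 and Ttr were added after their values were seen. Some related genes, and the 3 of 6 ratios that use them, are not reported here, but they stay in the counts over lists and in the adjustment. Members and lists were chosen with earlier results of these data known. The labels number animals within each genotype, and p-values judge the genotype difference against the spread between these samples. Libraries of a genotype all differed by more than counting noise (lowest chi-square per degree 8.36).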

Additional observations from a re-analysis of the deposited data

Results flagged for a closer look

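In 46 groups of 6 libraries (each genotype, for the 7 members, 13 partners and 3 ratios), 1 library lay farther from its nearest neighbour than Dixon's 95% limit allows in 3 groups, where chance gives about 2.3. Kcnq5 was at 73.5 CPM in WT 1, against 89.5 to 98.3 CPM in the other WT libraries. Kcna6 was at 86.5 CPM in cKO 4, against 72.3 to 77.6 CPM in the other 5 cKO animals. Kcnab2 was at 797.6 CPM in cKO 1, against 668.6 to 711.2 CPM in the remaining cKO animals.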

How the results depend on the processing

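Of 147 values of the members under 21 alternatives, 146 kept their direction and their side of the threshold, and 0 members passed under any of them. Over these alternatives the log2 fold change ranged from -0.32 to -0.22 for Kcnq3, with adjusted p of 0.0807 to 0.702. The exception was Hcn2, which ranged from -0.0015 to 0.025 with single libraries left out. The number of members lower at an unadjusted p under 0.05 was 1 with library totals alone, with limma-voom, with at least 1 CPM in 6 libraries and without WT 2, WT 3 and cKO 4, and 1 to 6 with single libraries left out. It was 3 with RLE scaling, upper-quartile scaling, DESeq2, no filter and the replicate block. The genes past the adjusted threshold in the whole table were 2 in edgeR, 76 in DESeq2, 0 in limma-voom, 1 without a filter, 1 with at least 1 CPM in 6 libraries, 0 without WT 2, WT 3 and cKO 4, and 0 to 6 with single libraries left out. At an unadjusted p under 0.05 there were 1257 to 2799 genes with single libraries left out. With animal number as a replicate block 0 genes passed, and Kcnq3 was at -0.26 (edgeR adjusted p = 0.483). The correlation of same-numbered animals ran from -0.31 to 0.33, and only animal 6 was closest to its own number. The labels do not say that the numbers pair the animals. These correlations cannot decide it, since other differences between libraries enter them.

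With single libraries left out, the log2 ratio difference ranged from -0.1057 to 0.0009 for Kcna1 to Kcna2, from -0.0524 to 0.0353 for Kcna4 to Kcna2 and from -0.1337 to -0.0266 for Kcnd2 to Kcnd3. Kcna4 to Kcna2 was 0.0869 without WT 2, WT 3 and cKO 4. Among partners, single libraries left out gave -0.0736 to 0.0125 for Kcnd3, -0.0346 to 0.0269 for Kcna6, -0.0233 to 0.1049 for Kcnip1, -0.0102 to 0.0589 for Kcnip2 and -0.1522 to 0.029 for Dpp10. Kcna6 was 0.008 with library totals, 0.0007 with at least 1 CPM in 6 libraries and 0.0001 with the replicate block. Without WT 2, WT 3 and cKO 4, Kcnip1 was -0.0003 and Kcnab1 0.0094. Per kilobase of all annotated exons, levels were 16.6 CPM for Kcnq3, 11.7 for Kcnq5 and 13.9 for Kcna1. Kcna2, at 17.6, then lay above Kcnq3. These levels changed only through the length used, which for Kcnq3 was 14708 bases in place of 11824. The cause of the other changes was not tested.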
